A study of Mus musculus with 24 samples.

Results

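The folding machinery of the endoplasmic reticulum (ER) was examined as a set of 44 genes in RNA-seq of livers from mice fasted for 24 h: the chaperones, the sensors and transcription factors of the unfolded protein response (UPR), ER-associated degradation (ERAD) and the translocon. The 44 genes were taken from a list of symbols, and each symbol was found on exactly 1 of the 54532 rows of the deposited count table, so no member was dropped. By role they comprised 10 Hsp70 and Hsp90 chaperones with their co-chaperones, 3 lectin chaperones and glycoprotein folding sensors, 6 protein disulfide isomerases and oxidases, 5 stress sensors and transcription factors, 11 ERAD genes and 9 translocon genes. RNA was sequenced from 24 livers of male C57BL/6J mice aged 8 to 10 weeks, 4 for each of 6 genotypes. Rab30KO mice lacked Rab30, a small GTPase of the Golgi, in the whole body, and Rab30 Ctrl were their wild-type littermates. Rab30L-/- mice lost a floxed exon of Rab30 through a Cre driven by the albumin promoter, which acts in hepatocytes. In Cpt2L-/- mice the same Cre removed Cpt2, the mitochondrial carnitine acyltransferase required to burn long-chain fatty acids, and in DKO mice it removed both genes. The ff;ff mice carried both floxed genes without Cre and were littermates of DKO, while the floxed controls of the single knockouts were not analysed here, so Rab30L-/- and Cpt2L-/- were set against ff;ff.

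Proteins that enter the secretory pathway cross the ER membrane through the Sec61 translocon and fold in the lumen with the help of the Hsp70 chaperone BiP (Hspa5), the lectins calnexin and calreticulin and the disulfide isomerases. Chains that do not fold are moved back to the cytosol by ERAD and degraded by the proteasome. An excess of unfolded chains activates the sensors IRE1 (Ern1), PERK (Eif2ak3) and ATF6: IRE1 splices the mRNA of the transcription factor XBP1, ATF6 is cut to release a transcription factor, and PERK phosphorylates eIF2 alpha, which lowers translation and favours ATF4. XBP1 and ATF6 raise chaperone and ERAD genes, partly through the ER stress response element (ERSE), while ATF4 raises genes such as Ddit3, Atf3 and Trib3. The fasted liver keeps exporting plasma proteins and lipoproteins, and it also expresses CREBH (Creb3l3), an ER-membrane transcription factor that is cleaved in fasting.

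The ERSE was looked for in the RefSeq promoters of the members (build GRCm38.p6, from 250 bases before to 50 bases after each gene start), which were found for 38 of the 44 members. It was spelled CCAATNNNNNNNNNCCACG and searched on both strands. The element was present in 10 of these 38 promoters (26.3%) and in 0.137% of the promoters of all 27025 genes in the table. The end CCACG alone was in 29 of 38 (76.3%) against 35.5% of all promoters, and the other end CCAAT in 28 of 38 (73.7%) against 41.1%. The hexamer ACGTGG, whose reverse complement holds CCACG, was in 13 of 38 (34.2%) against 9.4%, and TGACGT was in 3 of 38 (7.89%) against 8.37%. Of the 10 promoters, 6 are shown here because their genes recur in the results. Each is the element with 5 bases on either side, read 5′ to 3′ on the strand of the gene, with the 10 fixed letters of the element in capitals. The capitals read CGTGG and ATTGG where the element lies in reverse.
Hspa5, chr2:34772020-34772048, plus strand: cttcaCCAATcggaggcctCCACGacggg
Calr, chr8:84847070-84847098, minus strand: caacgCGTGGtcgaccctcATTGGcccat
Pdia6, chr12:17266486-17266514, plus strand: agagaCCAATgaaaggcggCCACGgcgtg
Ero1lb, chr13:12565677-12565705, plus strand: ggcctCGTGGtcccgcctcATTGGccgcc
Derl3, chr10:75893237-75893265, plus strand: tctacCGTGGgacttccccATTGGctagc
Syvn1, chr19:6046527-6046555, plus strand: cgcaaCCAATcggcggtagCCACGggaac
The first base of the element lay 65 bases before the gene start in Hspa5, 162 in Calr, 98 in Pdia6, 201 in Ero1lb, 156 in Derl3 and 44 in Syvn1. The other 4 holders were Hsp90b1, with 2 copies, Dnajc3, Creld2 and Canx. A match describes these letters only and not a bound site.

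Libraries held 11801027 to 24497738 counts, of which the 44 members took 0.593% to 0.902%. Levels are given as CPM, the counts scaled to library size with TMM over all 24 libraries, and fold changes come from fits on the 8 libraries of each comparison. Whole-gene counts of the deleted genes did not follow the labels in every comparison. Rab30 was at 14.1 ± 10.8 CPM (SD, n = 4) in Rab30 Ctrl and 11.2 ± 5.04 in Rab30KO, which overlap. It was at 36.6 ± 9.55 CPM in ff;ff, 17.1 ± 7.36 in Rab30L-/-, 147 ± 29.99 in Cpt2L-/- and 161 ± 57.9 in the libraries labelled DKO. Cpt2 was at 132 ± 5.16 CPM in ff;ff, 219.5 ± 40.3 in Rab30L-/-, 127 ± 30.2 in Cpt2L-/- and 105 ± 10.9 in DKO. It was lower in DKO than in Rab30L-/- without overlap (log2 fold change -1.07, SE 0.15, edgeR adjusted p = 0.000449), while Cpt2L-/- overlapped with ff;ff, so a direction drawn for a genotype is a direction for libraries labelled so. The Rab30 alleles lose an exon, while a whole-gene count covers all exons. The paper reports that Rab30KO mice lacked Rab30 mRNA and protein. For the liver genotypes it shows qRT-PCR of Rab30 and Cpt2 and immunoblots of Rab30. Defining hepatocyte markers were present in all libraries, with albumin (Alb) at 27691 CPM or more. A pair of libraries stood apart for these genes. Rab30cff741 had the highest members' share of counts of all 24 libraries (0.902%, against 0.721% to 0.739% in the other Rab30L-/- libraries), and DKO943 the highest of the DKO libraries (0.744%, against 0.593% to 0.642%). Counts of members called are therefore also given without them, a choice made after seeing the data.

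Livers without Cpt2 had less mRNA for many chaperones, disulfide isomerases and ERAD genes, and more for the sensor Eif2ak3. A member was called when edgeR's quasi-likelihood test gave a Benjamini-Hochberg adjusted p under 0.05 over all genes tested and the change was at least 1.2-fold. In Cpt2L-/- against ff;ff, 17 of 44 members were lower, where 11.9% of the 13270 genes tested were lower, and 2 were higher, where 11.9% of all genes were higher. In DKO against Rab30L-/-, which repeats the loss of Cpt2 in other libraries, 18 of the 43 members tested were lower against 15.8% of 13292 genes, and 3 were higher against 14.9%. Against ff;ff, the DKO livers had 16 of 44 members lower (8.24% of 13389 genes) and 2 higher (7.87% of all). The median log2 fold change of the members was -0.39, -0.47 and -0.36 in this order of comparisons, and that of all genes tested was -0.0035, -0.012 and -0.018. Across the 3 comparisons 27 members were lower at least once, 4 were higher at least once, 13 were never called and 0 were called in both directions. These are 61.4%, 9.09%, 29.5% and 0% of the members, where 20.7%, 20.3%, 59.3% and 0.371% of 13749 genes tested in at least 1 of them were. The third comparison shares its libraries with the other two, the ff;ff ones with the first and the DKO ones with the second.

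**Figure D1:**
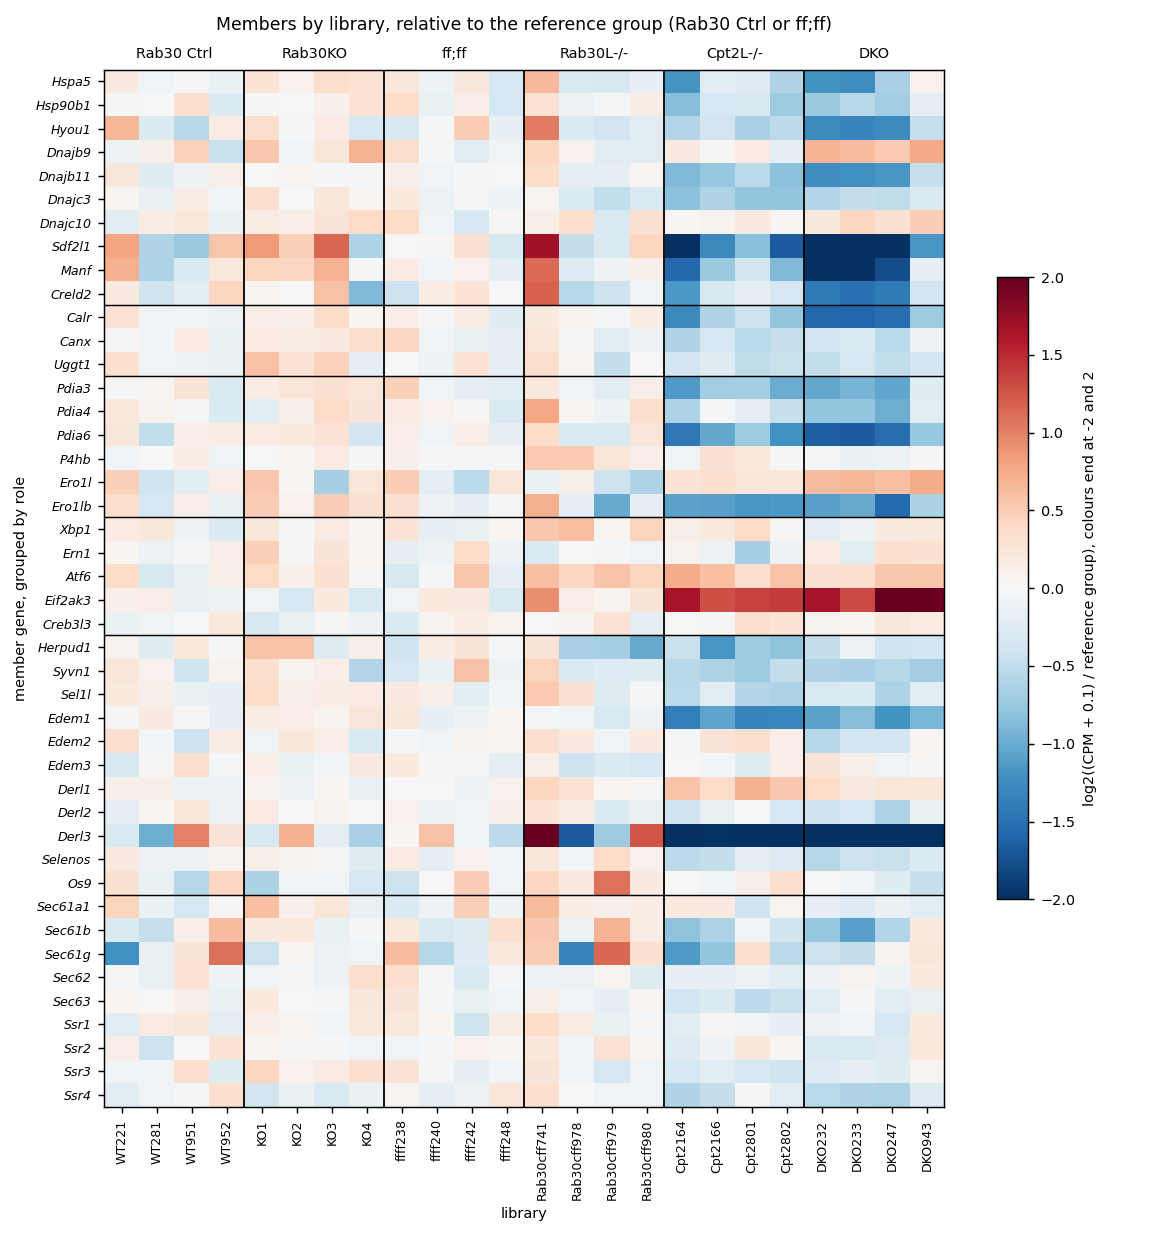
Each row is 1 member, grouped by role, and each column 1 library; the colour is the log2 ratio of its CPM (plus 0.1) to the mean of Rab30 Ctrl for the whole-body genotypes or of ff;ff for the others, with colours ending at -2 and 2. Most chaperone and disulfide isomerase rows are blue in Cpt2L-/- and in DKO, paler in DKO943, the Eif2ak3 row is red in both groups, and Rab30cff741 is red for most chaperones.

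Scaling and single libraries bear on these counts. Without TMM, on library totals alone, the median of all genes moved to 0.28, 0.14 and 0.17. The split of members turned from 2 higher and 17 lower to 5 and 8, from 3 and 18 to 5 and 11, and from 2 and 16 to 6 and 9. Over all genes tested it turned from 1576 higher and 1579 lower to 3614 and 958 in the first comparison. It went from 1984 and 2097 to 3066 and 1466 in the second, and from 1054 and 1103 to 2002 and 696 in the third. In DKO against ff;ff the 18 calls fell to 11 without DKO232, without DKO233 or without DKO247, and were 20 without DKO943. The members that lost a call on library totals were Hsp90b1, Hyou1, Manf, Calr, Canx, Herpud1, Syvn1, Sel1l and Sec63 in Cpt2L-/- against ff;ff, P4hb, Syvn1, Sel1l, Edem2, Os9, Sec61a1 and Sec61b in DKO against Rab30L-/-, and Dnajc3, Uggt1, Pdia3, Pdia4, Syvn1, Selenos and Ssr4 in DKO against ff;ff. With no filter on low counts, Sec63 lost its call in the first, Hyou1, Sdf2l1, P4hb and Sec61b in the second, and Dnajc3, Sdf2l1, Uggt1, Selenos and Ssr4 in the third. With all 24 libraries in 1 fit, Hyou1, Sdf2l1 and Manf lost it in the first, Sec61a1 in the second and Uggt1 in the third. In DKO against Rab30L-/- the 21 calls were 14 without DKO232 and 15 without DKO233 or DKO247, the lower ones going from 18 to 11, 11 and 12. They were 17 without Rab30cff741, 21 without DKO943 and 20 without both. Shares over all genes are not given for the leave-one-out fits of either DKO comparison, so these falls are not set beside them. Markers of cell types, hepatocytes included, were also compared, and the calls differed between types. The summed CPM of 6 Kupffer cell markers ran from 145 to 273 in ff;ff, 197 to 529 in Rab30L-/-, 115 to 182 in Cpt2L-/- and 114 to 140 in DKO, with 3 of 6 markers lower in Cpt2L-/- against ff;ff, 5 of 6 in DKO against Rab30L-/- and 3 of 6 in DKO against ff;ff. The summed CPM of 5 hepatocyte markers ran from 81652 to 103959 in ff;ff, 64965 to 77930 in Rab30L-/-, 36635 to 47119 in Cpt2L-/- and 47805 to 60428 in DKO, with 3 of 5 lower in each of these comparisons. The summed CPM of 5 bile duct markers ran from 15.33 to 31.88 in ff;ff, 17.91 to 32.74 in Rab30L-/-, 9.568 to 24.02 in Cpt2L-/- and 11.97 to 20.88 in DKO, and 1 of 4, 1 of 3 and 1 of 5 tested were lower, Sox9 each time, with log2 fold changes of -2.26, -2.01 and -1.45. Markers of plasma and B cells summed to 2.51 to 5.07 CPM in ff;ff, 3.62 to 7.72 in Rab30L-/-, 1.45 to 2.50 in Cpt2L-/- and 2.08 to 5.55 in DKO, and Jchain, the 1 marker tested in Cpt2L-/- against ff;ff, was lower there (log2 fold change -1.27, edgeR adjusted p = 0.0414), while 0 of 3 and 0 of 1 were called in the other two. The summed CPM of 6 endothelial markers ran from 163.2 to 240.9 in ff;ff, 146.3 to 176.4 in Rab30L-/-, 177.7 to 205.3 in Cpt2L-/- and 175.5 to 237 in DKO. Of these 6 endothelial markers, Clec4g was lower in Cpt2L-/- against ff;ff (log2 fold change -0.65, edgeR adjusted p = 0.013), Oit3 was higher in DKO against Rab30L-/- (0.59, edgeR adjusted p = 0.00689) and none was called in DKO against ff;ff. The summed CPM of 6 stellate cell markers ran from 167.8 to 283.9 in ff;ff, 245.3 to 270.5 in Rab30L-/-, 264.6 to 298.3 in Cpt2L-/- and 283.1 to 331.4 in DKO, which is above Rab30L-/- without overlap, and 0 of 6 were called in each of these comparisons. The part of these cell types in the results was not tested, and in whole liver fewer cells of a type and less RNA per cell cannot be told apart.

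Among the Hsp70 and Hsp90 chaperones, 6 of 10 were lower in Cpt2L-/- against ff;ff, 4 of 10 lower and 1 higher in DKO against Rab30L-/-, and 5 of 10 lower and 1 higher in DKO against ff;ff. Over all genes tested 11.9%, 15.8% and 8.24% were lower in this order, and 11.9%, 14.9% and 7.87% higher. Values per library are given below in the order ffff238, ffff240, ffff242, ffff248 for ff;ff, Rab30cff741, Rab30cff978, Rab30cff979, Rab30cff980 for Rab30L-/-, Cpt2164, Cpt2166, Cpt2801, Cpt2802 for Cpt2L-/- and DKO232, DKO233, DKO247, DKO943 for DKO. Hspa5, which encodes BiP, was at 746, 599, 749 and 502 CPM in ff;ff and 1009, 518, 515 and 569 in Rab30L-/-. Hspa5 stood at 283, 552, 534 and 421 CPM in Cpt2L-/- and 279, 270.3, 407 and 678 in DKO. The groups overlap, with Rab30cff741 highest of all and DKO943 above every Cpt2L-/- liver. Hspa5 had log2 fold changes of -0.55 in Cpt2L-/- against ff;ff (SE 0.22, edgeR adjusted p = 0.0833), -0.68 in DKO against Rab30L-/- (SE 0.33, edgeR adjusted p = 0.149) and -0.68 in DKO against ff;ff (SE 0.28, edgeR adjusted p = 0.127). None of these passed the test, and in DKO against Rab30L-/- the value became -0.73 (SE 0.19, edgeR adjusted p = 0.0219) with both DKO943 and Rab30cff741 left out.

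Sdf2l1, an ER protein that works with BiP and its J-domain partners, was at 8.298, 8.397, 10.2 and 6.602 CPM in ff;ff and 26.8, 5.94, 6.75 and 11.2 in Rab30L-/-. Sdf2l1 stood at 1.09, 3.34, 4.598 and 2.56 CPM in Cpt2L-/- and 0.279, 0.7098, 1.496 and 3.66 in DKO. It was lower in all Cpt2L-/- livers than in any ff;ff liver and lower in all DKO livers than in any Rab30L-/- liver. Sdf2l1 had log2 fold changes of -1.55 in Cpt2L-/- against ff;ff (SE 0.34, edgeR adjusted p = 0.0046), -2.98 in DKO against Rab30L-/- (SE 0.77, edgeR adjusted p = 0.0222) and -2.40 in DKO against ff;ff (SE 0.54, edgeR adjusted p = 0.0136). Manf, a secreted ER-stress-inducible factor, was at 37.7, 32.3, 35.9 and 29.3 CPM in ff;ff and 73.9, 28.1, 31.5 and 35.99 in Rab30L-/-. Manf stood at 11.3, 20.1, 26.2 and 18.2 CPM in Cpt2L-/- and 7.75, 7.098, 9.82 and 29.7 in DKO. Manf had log2 fold changes of -0.85 in Cpt2L-/- against ff;ff (SE 0.21, edgeR adjusted p = 0.0104), -1.63 in DKO against Rab30L-/- (SE 0.56, edgeR adjusted p = 0.0618) and -1.31 in DKO against ff;ff (SE 0.43, edgeR adjusted p = 0.0706). It fell in Cpt2L-/-, where the groups do not overlap and where the call was lost on library totals (log2 fold change -0.56, edgeR adjusted p = 0.0512) and with all 24 libraries in 1 fit (-0.84, edgeR adjusted p = 0.145), while DKO943 alone lay within the range of the controls among the DKO livers. Creld2, an ER-stress-inducible protein with disulfide isomerase activity, was at 17.4, 25.5, 27.9 and 23.2 CPM in ff;ff and 52.5, 15.8, 17.4 and 21.7 in Rab30L-/-. Creld2 stood at 10.4, 18.4, 20.3 and 18.3 CPM in Cpt2L-/- and 8.66, 8.13, 8.59 and 17.9 in DKO. Creld2 had log2 fold changes of -0.49 in Cpt2L-/- against ff;ff (SE 0.21, edgeR adjusted p = 0.113), -1.31 in DKO against Rab30L-/- (SE 0.45, edgeR adjusted p = 0.0615) and -1.12 in DKO against ff;ff (SE 0.26, edgeR adjusted p = 0.0128). It passed the test in DKO against ff;ff, and there DKO943 reached into the ff;ff range.

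Hyou1, a large Hsp70 relative and nucleotide exchange factor of BiP, was at 76.9, 94.96, 138 and 85.8 CPM in ff;ff and 198, 79.5, 74.1 and 83.1 in Rab30L-/-. Hyou1 stood at 64.3, 74.8, 61.5 and 66.7 CPM in Cpt2L-/- and 40.01, 38.5, 39.9 and 69.8 in DKO. Hyou1 had log2 fold changes of -0.58 in Cpt2L-/- against ff;ff (SE 0.18, edgeR adjusted p = 0.0341), -1.21 in DKO against Rab30L-/- (SE 0.36, edgeR adjusted p = 0.0348) and -1.08 in DKO against ff;ff (SE 0.24, edgeR adjusted p = 0.00917). All DKO livers except DKO943 lay between 38.5 and 40.01 CPM, below every other liver of these groups. Dnajb11, a J-domain co-chaperone of BiP, was at 80.3, 71.4, 73.9 and 75.03 CPM in ff;ff and 96.7, 66.4, 65.5 and 77.9 in Rab30L-/-. Dnajb11 stood at 40.8, 44.4, 51.9 and 42.6 CPM in Cpt2L-/- and 31.8, 31.9, 33.6 and 54.3 in DKO. Dnajb11 had log2 fold changes of -0.76 in Cpt2L-/- against ff;ff (SE 0.13, edgeR adjusted p = 0.000928), -1.02 in DKO against Rab30L-/- (SE 0.20, edgeR adjusted p = 0.00309) and -0.99 in DKO against ff;ff (SE 0.18, edgeR adjusted p = 0.00308). In all 3 comparisons its groups do not overlap, DKO943 included. Of the others, Hsp90b1 (the Hsp90 of the ER) had log2 fold changes of -0.58, -0.61 and -0.56 (SE 0.19, 0.16 and 0.19, edgeR adjusted p = 0.041, 0.014 and 0.0642), and Dnajc3, a J-domain protein that inhibits PERK, of -0.76, -0.22 and -0.47 (SE 0.14, 0.15 and 0.14, edgeR adjusted p = 0.00129, 0.275 and 0.034).

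Dnajb9, a J-domain protein that represses IRE1, went the other way. It was at 87.4, 66.2, 58.1 and 64.8 CPM in ff;ff and 92.2, 72.2, 59.2 and 58.5 in Rab30L-/-. Dnajb9 stood at 77.3, 69.3, 76.9 and 59.9 CPM in Cpt2L-/- and 109.6, 105, 97.9 and 115 in DKO. Dnajb9 had log2 fold changes of 0.02 in Cpt2L-/- against ff;ff (SE 0.16, edgeR adjusted p = 0.932), 0.60 in DKO against Rab30L-/- (SE 0.16, edgeR adjusted p = 0.0135) and 0.62 in DKO against ff;ff (SE 0.15, edgeR adjusted p = 0.0132). The DKO livers lay above all livers of the other 3 groups. Dnajc10, a disulfide reductase of the ER, did not pass the test in any comparison (log2 fold changes of 0.05, 0.23 and 0.34). Of the exon bases of Hsp90b1, 14.7% are shared with genes on the other strand and 6.94% with genes on the same strand. Leaving out 1 library ended the call in Cpt2L-/- against ff;ff of Hsp90b1 (without ffff238, ffff240, ffff242, Cpt2164, Cpt2166 or Cpt2802, log2 fold change -0.66 to -0.45, edgeR adjusted p 0.0501 to 0.126) and Hyou1 (without ffff240, ffff242, Cpt2164, Cpt2801 or Cpt2802, log2 fold change -0.59 to -0.37, edgeR adjusted p 0.0612 to 0.0853), and in DKO against Rab30L-/- of Hsp90b1 (without DKO232, log2 fold change -0.54, edgeR adjusted p 0.0545), Hyou1 (without DKO232, DKO233 or DKO247, log2 fold change -1.13 to -1.12, edgeR adjusted p 0.0933 to 0.0981) and Sdf2l1 (without DKO233 or DKO247, log2 fold change -2.93 to -2.74, edgeR adjusted p 0.0619 to 0.0675). In DKO against ff;ff it ended the call of Dnajc3 (without DKO232, DKO233, DKO247, ffff240, ffff242 or ffff248, log2 fold change -0.51 to -0.43, edgeR adjusted p 0.0502 to 0.114).

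**Figure D2:**
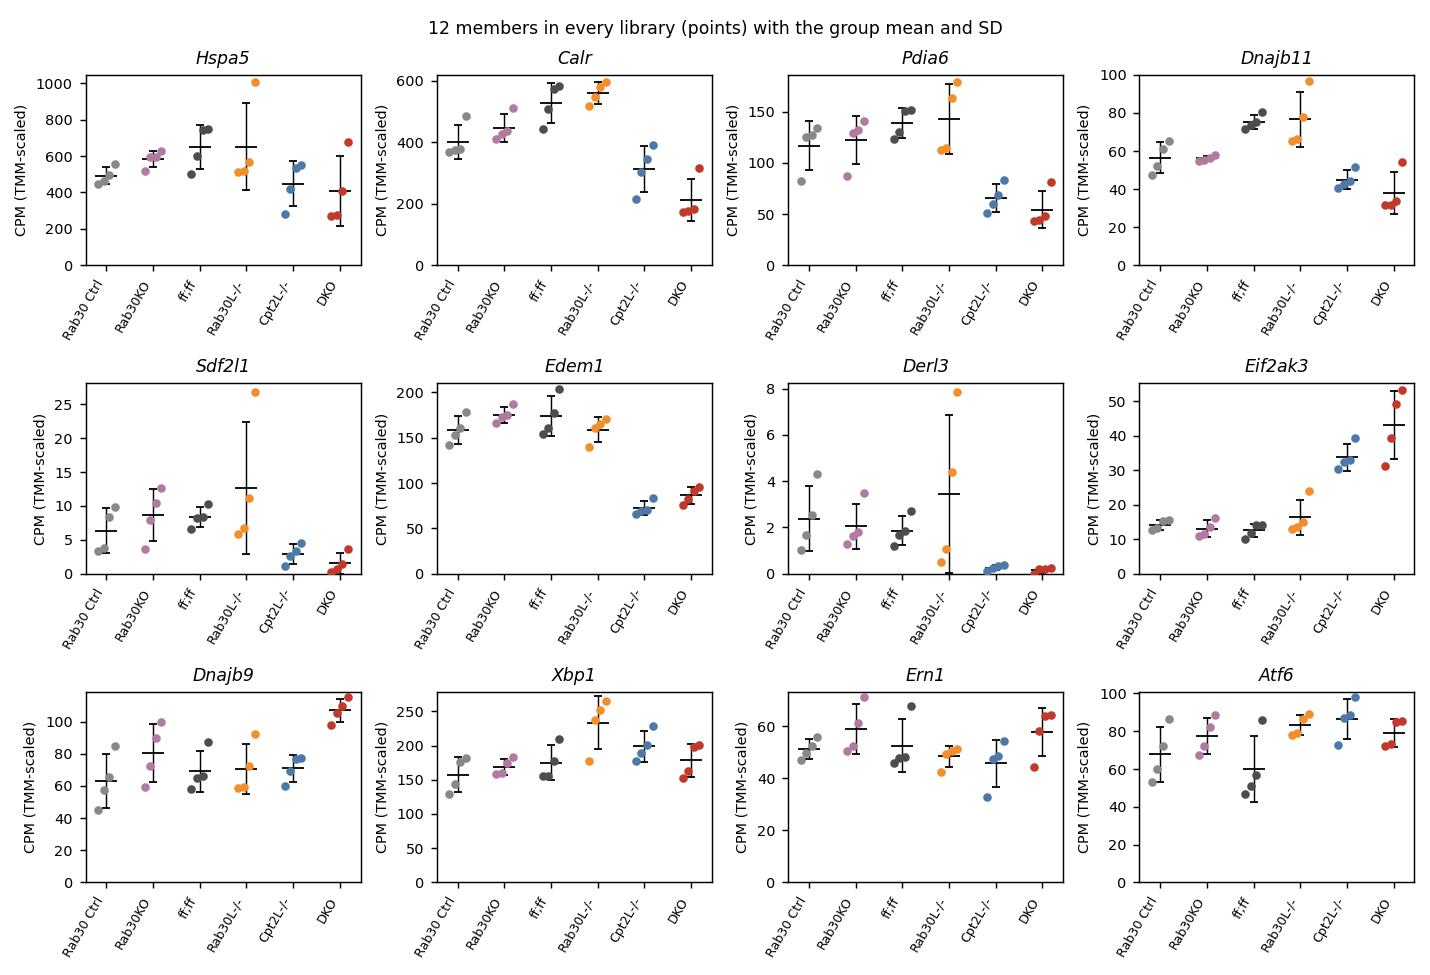
CPM of 12 members by genotype; points are the 4 livers of a group and bars the mean with its SD, on axes that start at 0. Calr, Pdia6, Edem1 and Derl3 lie below ff;ff in every Cpt2L-/- and DKO liver, Eif2ak3 lies above it in every one, and Hspa5, Xbp1, Ern1 and Atf6 overlap between genotypes.

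Of the lectin chaperones and the glycoprotein sensor, 2 of 3 were lower in Cpt2L-/- against ff;ff, 1 of 3 in DKO against Rab30L-/- and 2 of 3 in DKO against ff;ff. The shares lower over all genes were 11.9%, 15.8% and 8.24%. Calr, calreticulin, was at 574, 507, 581 and 442 CPM in ff;ff and 597, 546, 517 and 578 in Rab30L-/-. Calr stood at 214, 346, 389 and 303 CPM in Cpt2L-/- and 177, 174, 183 and 315 in DKO. Calr had log2 fold changes of -0.76 in Cpt2L-/- against ff;ff (SE 0.19, edgeR adjusted p = 0.00949), -1.40 in DKO against Rab30L-/- (SE 0.20, edgeR adjusted p = 0.00042) and -1.32 in DKO against ff;ff (SE 0.21, edgeR adjusted p = 0.00143). All Cpt2L-/- and DKO livers lay below all ff;ff and Rab30L-/- livers. On library totals its call in Cpt2L-/- against ff;ff was lost (log2 fold change -0.47, edgeR adjusted p = 0.0581). Canx, the membrane-bound calnexin, had log2 fold changes of -0.52, -0.30 and -0.34 (SE 0.16, 0.15 and 0.17, edgeR adjusted p = 0.0317, 0.137 and 0.195), and Uggt1, the glucosyltransferase that marks unfolded glycoproteins for another round of folding, of -0.41, -0.44 and -0.44 (SE 0.14, 0.16 and 0.14, edgeR adjusted p = 0.0555, 0.0603 and 0.0445). In Cpt2L-/- against ff;ff the call was lost for Canx (without ffff238, Cpt2164, Cpt2801 or Cpt2802, log2 fold change -0.53 to -0.36, edgeR adjusted p 0.0579 to 0.0807) and, in DKO against ff;ff, for Uggt1 (without DKO232, DKO233, DKO247, DKO943, ffff240, ffff242 or ffff248, log2 fold change -0.50 to -0.35, edgeR adjusted p 0.0527 to 0.123).

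Disulfide isomerases and oxidases split in direction, with 3 of 6 lower in Cpt2L-/- against ff;ff, 4 lower and 1 higher in DKO against Rab30L-/- and 4 lower in DKO against ff;ff. All genes tested were lower in 11.9%, 15.8% and 8.24% of cases and higher in 11.9%, 14.9% and 7.87%. Pdia6, an isomerase, was at 151, 131, 151 and 123 CPM in ff;ff and 179, 114, 112 and 163.98 in Rab30L-/-. Pdia6 stood at 51.1, 68.3, 83.5 and 59.8 CPM in Cpt2L-/- and 44.5, 43.6, 48.1 and 81.8 in DKO. Pdia6 had log2 fold changes of -1.10 in Cpt2L-/- against ff;ff (SE 0.16, edgeR adjusted p = 0.000346), -1.39 in DKO against Rab30L-/- (SE 0.24, edgeR adjusted p = 0.0018) and -1.36 in DKO against ff;ff (SE 0.20, edgeR adjusted p = 0.00096). Every liver without Cpt2 lay below every liver of ff;ff and Rab30L-/-. Pdia3 (ERp57), the partner of the lectins, was at 475, 320.4, 298 and 294 CPM in ff;ff and 395, 319, 293 and 371 in Rab30L-/-. Pdia3 stood at 155, 210.1, 212 and 170.1 CPM in Cpt2L-/- and 168, 178, 166.1 and 287 in DKO. Pdia3 had log2 fold changes of -0.91 in Cpt2L-/- against ff;ff (SE 0.18, edgeR adjusted p = 0.00307), -0.79 in DKO against Rab30L-/- (SE 0.19, edgeR adjusted p = 0.00968) and -0.80 in DKO against ff;ff (SE 0.22, edgeR adjusted p = 0.0256). The groups do not overlap in any of these comparisons, although DKO943 lay just under the lowest controls. Pdia4 was at 114, 107, 103 and 83.2 CPM in ff;ff and 173, 105, 93.9 and 129 in Rab30L-/-. Pdia4 stood at 66.2, 99.3, 88.97 and 73.4 CPM in Cpt2L-/- and 58.995, 58.97, 51.2 and 87.4 in DKO. Pdia4 had log2 fold changes of -0.33 in Cpt2L-/- against ff;ff (SE 0.16, edgeR adjusted p = 0.168), -0.97 in DKO against Rab30L-/- (SE 0.22, edgeR adjusted p = 0.00743) and -0.67 in DKO against ff;ff (SE 0.18, edgeR adjusted p = 0.0228). It passed the test in both DKO comparisons, and in DKO against ff;ff the groups overlap through DKO943. P4hb, the most abundant isomerase here and a subunit of prolyl 4-hydroxylase and of the microsomal triglyceride transfer protein, was at 1280.1, 1177, 1159 and 1162 CPM in ff;ff and 1716, 1722, 1405 and 1308 in Rab30L-/-. P4hb stood at 1136, 1473, 1384 and 1167 CPM in Cpt2L-/- and 1169, 1088, 1095 and 1211 in DKO. P4hb had log2 fold changes of 0.10 in Cpt2L-/- against ff;ff (SE 0.15, edgeR adjusted p = 0.683), -0.43 in DKO against Rab30L-/- (SE 0.15, edgeR adjusted p = 0.0478) and -0.07 in DKO against ff;ff (SE 0.14, edgeR adjusted p = 0.775). It was called in DKO against Rab30L-/-, and the Rab30L-/- livers were all above ff;ff.

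Of the paralogous oxidases that feed disulfides to the isomerases, Ero1lb was called lower in both comparisons with ff;ff and Ero1l higher in DKO against Rab30L-/-, and no single comparison called both. Ero1lb was at 64.2, 48.7, 46.3 and 51.4 CPM in ff;ff and 85.3, 45.4, 26.04 and 45.4 in Rab30L-/-. Ero1lb stood at 24.8, 24.6, 23.2 and 23.5 CPM in Cpt2L-/- and 24.4, 25.8, 17.7 and 33.6 in DKO. Ero1lb had log2 fold changes of -1.14 in Cpt2L-/- against ff;ff (SE 0.14, edgeR adjusted p = 9.85e-05), -0.9962 in DKO against Rab30L-/- (SE 0.35, edgeR adjusted p = 0.0595) and -1.06 in DKO against ff;ff (SE 0.19, edgeR adjusted p = 0.00296). All Cpt2L-/- livers lay close together below ff;ff, while Rab30cff979 brought Rab30L-/- into the range of DKO. Ero1l, whose transcription also responds to hypoxia and to CHOP, was at 25.6, 15.9, 12.5 and 21.5 CPM in ff;ff and 16.5, 19.8, 13.7 and 11.8 in Rab30L-/-. Ero1l stood at 21.9, 22.9, 21.6 and 21.4 CPM in Cpt2L-/- and 27.9, 28.9, 27.6 and 30.5 in DKO. Ero1l had log2 fold changes of 0.21 in Cpt2L-/- against ff;ff (SE 0.20, edgeR adjusted p = 0.482), 0.90 in DKO against Rab30L-/- (SE 0.16, edgeR adjusted p = 0.00158) and 0.60 in DKO against ff;ff (SE 0.20, edgeR adjusted p = 0.0562). It was higher in DKO than in Rab30L-/- without overlap, and it was not called in Cpt2L-/-. Reads shared between these paralogs could not be checked. Leaving out 1 library ended the call of P4hb (without Rab30cff741, Rab30cff978, DKO232, DKO233, DKO247 or DKO943, log2 fold change -0.45 to -0.36, edgeR adjusted p 0.068 to 0.12) in DKO against Rab30L-/- and of Pdia3 (without DKO232, DKO233 or DKO247, log2 fold change -0.75 to -0.72, edgeR adjusted p 0.0725 to 0.0824) and Pdia4 (without DKO232, DKO233, DKO247 or ffff240, log2 fold change -0.64 to -0.58, edgeR adjusted p 0.062 to 0.0723) in DKO against ff;ff.

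Of the 5 sensors and transcription factors 1 was called, and it was higher in all 3 comparisons, where 11.9%, 14.9% and 7.87% of all genes were higher. Eif2ak3, which encodes PERK, was at 11.8, 14.3, 14.1 and 10.2 CPM in ff;ff and 23.9, 13.7, 13.1 and 14.9 in Rab30L-/-. Eif2ak3 stood at 39.4, 30.5, 32.4 and 32.9 CPM in Cpt2L-/- and 39.2, 31.1, 53.1 and 49.2 in DKO. Eif2ak3 had log2 fold changes of 1.41 in Cpt2L-/- against ff;ff (SE 0.16, edgeR adjusted p = 5.39e-05), 1.40 in DKO against Rab30L-/- (SE 0.23, edgeR adjusted p = 0.00137) and 1.77 in DKO against ff;ff (SE 0.19, edgeR adjusted p = 0.000151). Every liver without Cpt2 was above every liver with it in these 4 groups, Rab30cff741 being the highest of the latter. It kept its call in every setting tried and with any 1 library left out. Of its exon bases 10% are shared with Gm43292, annotated on the other strand, and the strand setting of the counting is not given in the sources used here. Xbp1 was at 210.2, 155, 156 and 178 CPM in ff;ff and 253, 265, 177 and 237 in Rab30L-/-. Xbp1 stood at 189, 201, 229 and 177 CPM in Cpt2L-/- and 153, 163, 198 and 200.1 in DKO. Xbp1 had log2 fold changes of 0.17 in Cpt2L-/- against ff;ff (SE 0.14, edgeR adjusted p = 0.424), -0.39 in DKO against Rab30L-/- (SE 0.16, edgeR adjusted p = 0.0854) and 0.02 in DKO against ff;ff (SE 0.15, edgeR adjusted p = 0.945). The groups overlap, and gene counts do not separate the spliced form of Xbp1 mRNA from the unspliced one.

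Ern1, which encodes IRE1 alpha, was at 46.03, 48.4, 67.8 and 47.99 CPM in ff;ff and 42.5, 51.4, 50.6 and 49.3 in Rab30L-/-. Ern1 stood at 54.3, 47.6, 32.8 and 48.5 CPM in Cpt2L-/- and 58.2, 44.5, 64.6 and 64.1 in DKO. Ern1 had log2 fold changes of -0.21 in Cpt2L-/- against ff;ff (SE 0.19, edgeR adjusted p = 0.461), 0.26 in DKO against Rab30L-/- (SE 0.14, edgeR adjusted p = 0.17) and 0.13 in DKO against ff;ff (SE 0.17, edgeR adjusted p = 0.665). No group stands apart. Atf6 was at 46.995, 56.6, 85.8 and 51.04 CPM in ff;ff and 89.2, 78.3, 86.4 and 79.03 in Rab30L-/-. Atf6 stood at 98.2, 88.6, 72.7 and 86.9 CPM in Cpt2L-/- and 72.3, 73.4, 85.01 and 85.5 in DKO. Atf6 had log2 fold changes of 0.52 in Cpt2L-/- against ff;ff (SE 0.19, edgeR adjusted p = 0.0706), -0.07 in DKO against Rab30L-/- (SE 0.11, edgeR adjusted p = 0.656) and 0.39 in DKO against ff;ff (SE 0.19, edgeR adjusted p = 0.193). All ff;ff livers except ffff242 were lower than every liver of the other 3 groups. Creb3l3 was at 409.6, 519.6, 551 and 519 CPM in ff;ff and 493, 524, 608 and 441 in Rab30L-/-. Creb3l3 stood at 496, 505, 625 and 601 CPM in Cpt2L-/- and 523, 509, 582 and 557 in DKO. Creb3l3 had log2 fold changes of 0.14 in Cpt2L-/- against ff;ff (SE 0.15, edgeR adjusted p = 0.542), 0.08 in DKO against Rab30L-/- (SE 0.14, edgeR adjusted p = 0.712) and 0.11 in DKO against ff;ff (SE 0.15, edgeR adjusted p = 0.672). Its livers overlap in every comparison, and Xbp1, Ern1, Atf6 and Creb3l3 were called in none of the 7 comparisons.

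ERAD genes were lower in 5 and higher in 1 of 11 in Cpt2L-/- against ff;ff, lower in 6 of the 10 tested in DKO against Rab30L-/- and lower in 4 of 11 in DKO against ff;ff. For all genes the shares were 11.9%, 15.8% and 8.24% lower, and 11.9%, 14.9% and 7.87% higher. Derl3, a derlin of the ER membrane, was the least abundant member, at 1.83, 2.72, 1.67 and 1.21 CPM in ff;ff and 7.85, 0.495, 1.05 and 4.403 in Rab30L-/-. Derl3 stood at 0.128, 0.378, 0.324 and 0.2498 CPM in Cpt2L-/- and 0, 0.194, 0.195 and 0.235 in DKO. The livers without Cpt2 held 0 to 6 counts of Derl3 each, those of ff;ff 19 to 46 and those of Rab30L-/- 6 to 104. Its log2 fold change was -2.76 in Cpt2L-/- against ff;ff (SE 0.43, edgeR adjusted p = 0.000521) and -3.47 in DKO against ff;ff (SE 0.55, edgeR adjusted p = 0.00143), and it did not pass the count filter for DKO against Rab30L-/-. Edem1, a lectin that extracts misfolded glycoproteins from the folding cycle, was at 203, 154, 161 and 177 CPM in ff;ff and 170.3, 165, 139.8 and 161 in Rab30L-/-. Edem1 stood at 66.2, 83.4, 68.9 and 70.3 CPM in Cpt2L-/- and 82.4, 95.6, 75.8 and 91.5 in DKO. Edem1 had log2 fold changes of -1.28 in Cpt2L-/- against ff;ff (SE 0.14, edgeR adjusted p = 4.42e-05), -0.88 in DKO against Rab30L-/- (SE 0.12, edgeR adjusted p = 0.000438) and -1.02 in DKO against ff;ff (SE 0.14, edgeR adjusted p = 0.000574). Both groups without Cpt2 lay below both groups with it in every liver.

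Herpud1, a scaffold of the ERAD ligase that is a target of ATF4 and ATF6, was at 454, 659.6, 715 and 589 CPM in ff;ff and 713, 382, 377 and 296 in Rab30L-/-. Herpud1 stood at 437, 266, 364 and 341 CPM in Cpt2L-/- and 429, 552, 453 and 455 in DKO. Herpud1 had log2 fold changes of -0.79 in Cpt2L-/- against ff;ff (SE 0.19, edgeR adjusted p = 0.00834), 0.09 in DKO against Rab30L-/- (SE 0.25, edgeR adjusted p = 0.807) and -0.36 in DKO against ff;ff (SE 0.17, edgeR adjusted p = 0.183). It was called in Cpt2L-/- against ff;ff, though not on library totals (log2 fold change -0.51, edgeR adjusted p = 0.0598), and all Rab30L-/- livers except Rab30cff741 were below all ff;ff livers. The ligase Syvn1 (HRD1) had log2 fold changes of -0.64, -0.58 and -0.68 (SE 0.19, 0.17 and 0.19, edgeR adjusted p = 0.0258, 0.0242 and 0.0276), and its adaptor Sel1l of -0.50, -0.52 and -0.36 (SE 0.15, 0.17 and 0.14, edgeR adjusted p = 0.0252, 0.0422 and 0.113). Selenos, a membrane selenoprotein of the same complex, had log2 fold changes of -0.37, -0.59 and -0.44 (SE 0.14, 0.12 and 0.13, edgeR adjusted p = 0.0679, 0.00403 and 0.0414), Os9, a lectin that delivers substrates, of 0.05, -0.69 and -0.23 (SE 0.19, 0.20 and 0.20, edgeR adjusted p = 0.881, 0.0247 and 0.483), and the mannosidase-like Edem2 of 0.16, -0.47 and -0.32 (SE 0.13, 0.15 and 0.15, edgeR adjusted p = 0.419, 0.0304 and 0.175).

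Derl1, another derlin, rose in Cpt2L-/- against ff;ff by a log2 fold change of 0.54 (SE 0.13, edgeR adjusted p = 0.00724). It was at 130.2, 129, 121 and 137 CPM in ff;ff and 174, 157, 132 and 131 in Rab30L-/-. Derl1 stood at 192, 167, 212 and 189 CPM in Cpt2L-/- and 171, 146, 152 and 151 in DKO. In the DKO comparisons it was not called (log2 fold changes of 0.06 and 0.26). Edem3 and Derl2 were called in none of the 3 comparisons. Single libraries ended the call of Syvn1 (without Cpt2166 or Cpt2801, log2 fold change -0.65 to -0.60, edgeR adjusted p 0.0597 to 0.0674) and Sel1l (without ffff240, Cpt2164, Cpt2801 or Cpt2802, log2 fold change -0.49 to -0.46, edgeR adjusted p 0.0617 to 0.0906) in Cpt2L-/- against ff;ff. They did so in DKO against Rab30L-/- for Syvn1 (without DKO232, DKO233 or DKO943, log2 fold change -0.58 to -0.55, edgeR adjusted p 0.0529 to 0.0595), Sel1l (without Rab30cff741, Rab30cff978, Rab30cff980, DKO232, DKO233, DKO247 or DKO943, log2 fold change -0.58 to -0.37, edgeR adjusted p 0.0519 to 0.11), Edem2 (without Rab30cff741, Rab30cff978, Rab30cff980, DKO232, DKO233 or DKO247, log2 fold change -0.46 to -0.38, edgeR adjusted p 0.0665 to 0.1) and Os9 (without DKO247 or DKO943, log2 fold change -0.66 to -0.60, edgeR adjusted p 0.0602 to 0.0728), and in DKO against ff;ff for Syvn1 (without DKO232, DKO233, DKO247 or DKO943, log2 fold change -0.70 to -0.66, edgeR adjusted p 0.0535 to 0.0706) and Selenos (without DKO232, DKO233, DKO247, ffff238, ffff240, ffff242 or ffff248, log2 fold change -0.49 to -0.38, edgeR adjusted p 0.0502 to 0.131).

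Of 9 translocon genes 1 was lower in Cpt2L-/- against ff;ff, 3 in DKO against Rab30L-/- and 1 in DKO against ff;ff. These are 11.1%, 33.3% and 11.1%, where 11.9%, 15.8% and 8.24% of all genes were lower, with medians of -0.32, -0.27 and -0.16 and no gene higher. Ssr4, a subunit of the translocon-associated protein complex, had log2 fold changes of -0.32, -0.54 and -0.51 (SE 0.16, 0.14 and 0.14, edgeR adjusted p = 0.181, 0.0109 and 0.0312). Sec61b, the small beta subunit of the channel, was at 17.1, 12.1, 12.5 and 18.3 CPM in ff;ff and 21.4, 13.8, 23.7 and 16.3 in Rab30L-/-. Sec61b stood at 8.39, 9.63, 13.99 and 11.2 CPM in Cpt2L-/- and 8.66, 6.904, 9.76 and 16.8 in DKO. Sec61b had log2 fold changes of -0.49 in Cpt2L-/- against ff;ff (SE 0.20, edgeR adjusted p = 0.101), -0.83 in DKO against Rab30L-/- (SE 0.27, edgeR adjusted p = 0.0375) and -0.51 in DKO against ff;ff (SE 0.26, edgeR adjusted p = 0.223). It was called in DKO against Rab30L-/-, where the groups overlap through DKO943. The channel subunit Sec61a1 had log2 fold changes of -0.01, -0.47 and -0.23 (SE 0.19, 0.14 and 0.17, edgeR adjusted p = 0.974, 0.0254 and 0.393) and Sec63, the J-domain partner that recruits BiP, of -0.43, -0.14 and -0.16 (SE 0.14, 0.12 and 0.13, edgeR adjusted p = 0.0381, 0.414 and 0.457). Sec61g, Sec62, Ssr1, Ssr2 and Ssr3 were not called in any of these comparisons. For Sec61a1, 17.3% of exon bases are shared with Gm44170 on the other strand, and for Sec62 12.8% with 4933429H19Rik. Leaving out 1 library ended the call of Sec63 (without ffff238, ffff240, ffff248, Cpt2164, Cpt2166, Cpt2801 or Cpt2802, log2 fold change -0.48 to -0.34, edgeR adjusted p 0.0516 to 0.105) in Cpt2L-/- against ff;ff, of Sec61a1 (without Rab30cff741, DKO232, DKO233 or DKO943, log2 fold change -0.47 to -0.32, edgeR adjusted p 0.0523 to 0.0654) and Sec61b (without Rab30cff741, Rab30cff979, Rab30cff980, DKO232, DKO233 or DKO247, log2 fold change -0.89 to -0.66, edgeR adjusted p 0.0563 to 0.103) in DKO against Rab30L-/-, and of Ssr4 (without DKO232, DKO233, DKO247 or ffff248, log2 fold change -0.49 to -0.42, edgeR adjusted p 0.0878 to 0.0983) in DKO against ff;ff.

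**Figure D3:**
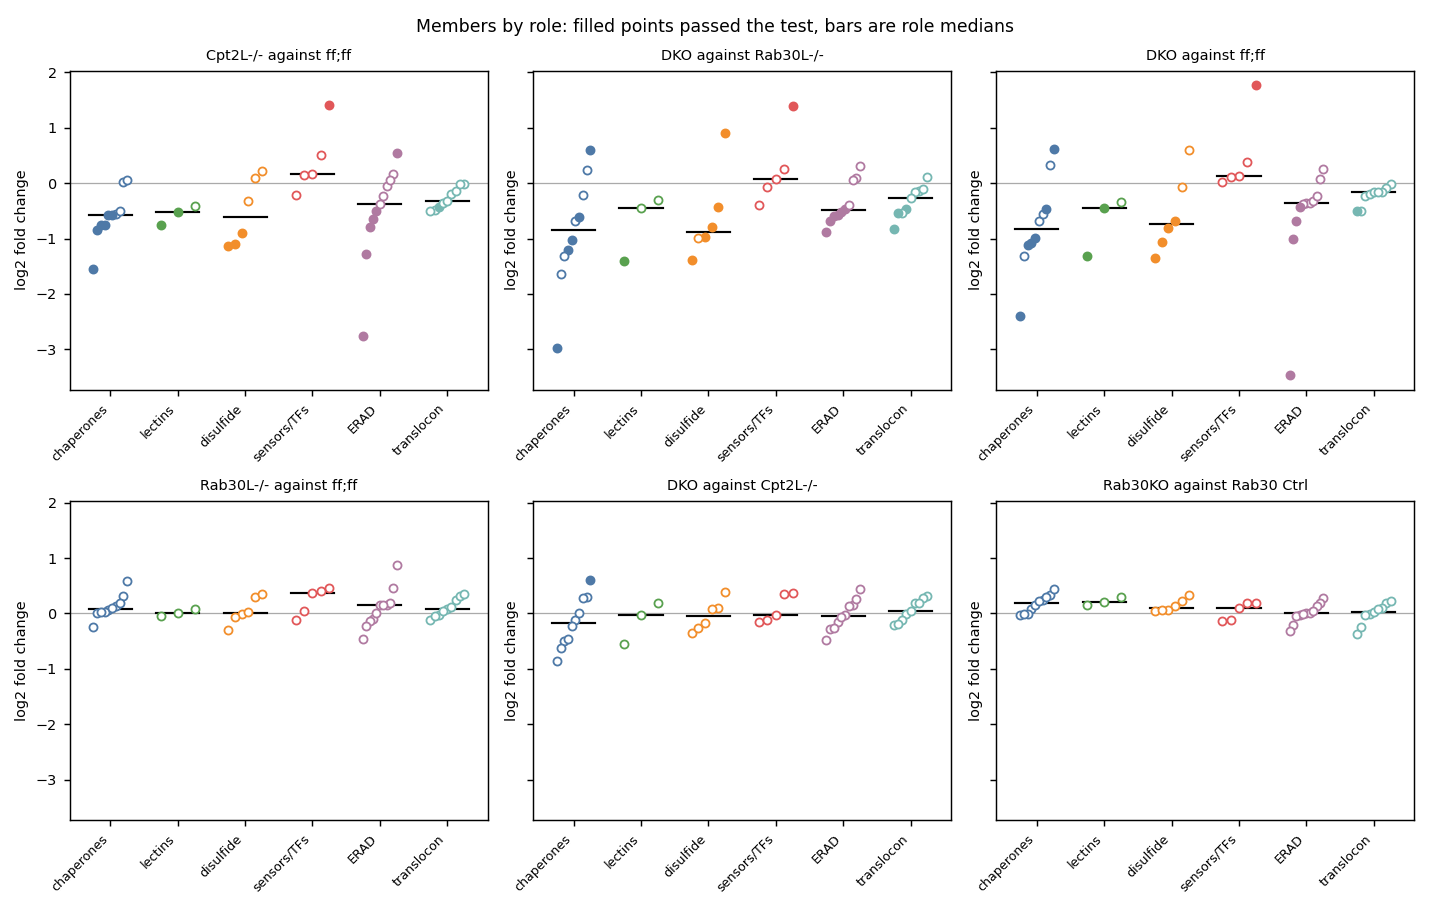
Log2 fold change of each member by role in the 6 pairwise comparisons; filled points passed the test, open points did not, and bars are the medians of a role. In the first 3 panels, which compare livers without Cpt2 with livers that have it, chaperones, lectins and disulfide isomerases have medians between -0.44 and -0.88, while the last 3 panels hold a single filled point, Dnajb9.

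Cpt2L-/- against ff;ff and DKO against Rab30L-/- share no library, so they are separate measurements of the loss of Cpt2, made with and without Rab30. The labels name ff;ff as littermates of DKO only, so neither comparison is known to be between littermates. Differences of litter or line cannot be told apart from the loss of Cpt2 here. Of the 43 members tested in both, 18 were called in the first and 21 in the second, and 11 in both in the same direction, which is 61.1% of the first and 52.4% of the second, where the shares over all genes were 54.6% and 41.9%. Of these 11, 10 were lower in both (Hsp90b1, Hyou1, Dnajb11, Sdf2l1, Calr, Pdia3, Pdia6, Syvn1, Sel1l and Edem1), which is 23.3% of the members tested in both, where 6.71% of 12970 genes were lower in both. Eif2ak3 was higher in both, as were 6.28% of all genes. Dnajb11, Pdia3, Pdia6, Edem1 and Eif2ak3 kept both calls in every setting and leave-one-out fit. Hsp90b1, Hyou1, Syvn1 and Sel1l lost theirs in each comparison when certain single libraries were left out. Sdf2l1 and Calr each lost a call in at least 1 fit or setting. Groups overlap for Sel1l in both comparisons and for Hsp90b1 in Cpt2L-/- against ff;ff. No member was called in opposite directions, where 0.386% of all genes were. Across the 43 members the log2 fold changes correlated with Pearson's r of 0.76 and Spearman's rho of 0.69, and across the 12970 genes with 0.57 and 0.52. The genes of a library share its depth and composition and are not independent replicates, so these correlations are descriptions.

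**Figure D4:**
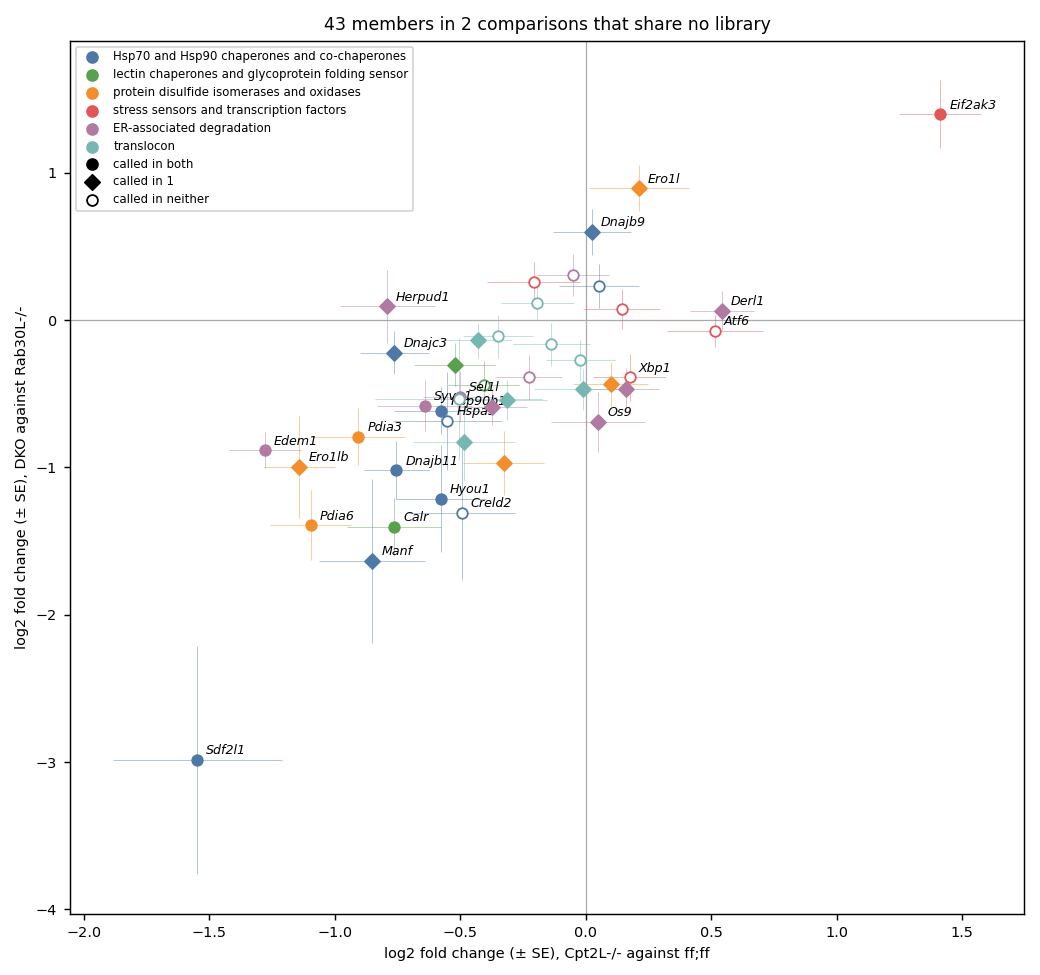
Log2 fold changes with their SE for the 43 members tested in both comparisons, Cpt2L-/- against ff;ff on the x axis and DKO against Rab30L-/- on the y axis, coloured by role; filled circles were called in both, diamonds in 1 and open circles in neither. The 10 members lower in both lie in the lower left, Eif2ak3 stands alone at the upper right with 1.41 and 1.40, and Dnajb9 and Ero1l are higher on the y axis only.

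Members that carry the ERSE were lower in 8 of 10 cases in Cpt2L-/- against ff;ff, with a median of -0.70, against 7 of the 28 members whose promoter does not hold it, with a median of -0.27. In DKO against Rab30L-/- the counts were 4 of 9 and 12 of 28, with medians of -0.68 and -0.41, and in DKO against ff;ff 7 of 10 and 8 of 28, with medians of -0.87 and -0.21. Over all genes tested, 11.9%, 15.8% and 8.24% were lower in this order of comparisons. All holders that were tested had negative log2 fold changes in these 3 comparisons, as had 19, 19 and 20 of the 28 members without the element. The highest was -0.22, in DKO against Rab30L-/-. No test was made of this difference, since the element was chosen with earlier results of these data known. Sdf2l1 and Edem1, among those with the largest decreases, do not hold the full element in this window.

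Without Rab30 but with intact Cpt2, no member passed the test. In Rab30L-/- against ff;ff, 0 of 44 members were called by edgeR, where 0.479% of 13367 genes were, and DESeq2's Wald test also called 0, where it called 1.85% of genes. At an unadjusted p under 0.05 and 1.2-fold edgeR had 3 members, where 11.2% of all genes were past it. They were Atf6, with a log2 fold change of 0.46 (SE 0.19, edgeR adjusted p = 0.372), Xbp1 with 0.41 (SE 0.17, edgeR adjusted p = 0.387) and P4hb with 0.36 (SE 0.16, edgeR adjusted p = 0.442). The members' median was 0.07 and their range -0.46 to 0.87. In whole-body Rab30KO against Rab30 Ctrl, 0 of 44 were called by edgeR and 0 by DESeq2, where 0.022% of 13656 genes were called by edgeR and 0.0556% by DESeq2, and none had an unadjusted p under 0.05 with a 1.2-fold change, where 2.21% of all genes did in edgeR. The smallest p belonged to Ero1lb, with a log2 fold change of 0.33 (SE 0.18), Hspa5 with 0.24 (SE 0.15) and Ssr4 with -0.24 (SE 0.15), each with an edgeR adjusted p of 1. Hspa5 was at 555, 464, 498 and 448 CPM in Rab30 Ctrl and 595, 519.9, 628 and 593 in Rab30KO, Eif2ak3 at 15.2, 15.6, 12.8 and 13.2 and 13.5, 11.1, 16.2 and 11.4, and Xbp1 at 175, 182, 144 and 129 and 183, 159, 174 and 161. Ern1 was at 52.3, 46.9, 49.6 and 56.01 and 71.5, 50.4, 61.3 and 52.3, Atf6 at 86.3, 53.2, 59.96 and 72.2 and 88.5, 72.2, 82.3 and 67.6, and Creb3l3 at 370.3, 385, 405 and 473 and 327, 368, 412 and 378, in the order WT221, WT281, WT951, WT952 and KO1 to KO4. Ero1lb stood at 51.4, 31.7, 44.01 and 36.3 and 57.3, 42.6, 56.7 and 49.6, and Ssr4 at 50.995, 55.8, 58.2 and 73.7 and 46.03, 54.2, 48.02 and 54.1. The genotypes overlap for Eif2ak3, Xbp1, Ern1, Atf6, Creb3l3, Ero1lb, Hspa5 and Ssr4.

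Without Cpt2, the further loss of Rab30 left 1 member past the test. In DKO against Cpt2L-/-, 1 of the 43 members tested was higher, where 1.38% of 13306 genes were, and 0 were lower, where 1.33% of genes were. The 1 member was Dnajb9, higher in every DKO liver than in any Cpt2L-/- liver, with a log2 fold change of 0.60 (SE 0.11, edgeR adjusted p = 0.0237). Its call was lost without DKO232, DKO233, Cpt2166 or Cpt2802 (log2 fold change 0.53 to 0.61, edgeR adjusted p 0.0577 to 0.0885). At an unadjusted p under 0.05 and 1.2-fold, edgeR had 13 members and DESeq2 also 13, where 21.2% and 20% of all genes were past it. DESeq2 called 2 of the members, Dnajb9 and Ero1l, and 6.39% of all genes. With DKO232, DKO233, Cpt2166 or Cpt2802 left out singly, edgeR called 0 members. Without DKO943, edgeR called 6 members and 2.42% of all genes. These were Dnajb9 and, lower, Manf with a log2 fold change of -1.18 (SE 0.25, adjusted p = 0.0377), Creld2 with -0.98 (SE 0.22, adjusted p = 0.0392), Calr with -0.80 (SE 0.18, adjusted p = 0.0442), Hyou1 with -0.74 (SE 0.12, adjusted p = 0.0129) and Edem2 with -0.60 (SE 0.13, adjusted p = 0.0392). With DKO943 kept, the same 5 genes had log2 fold changes of -0.46, -0.62, -0.55, -0.50 and -0.47 in this order and adjusted p between 0.096 and 0.619.

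The interaction subtracts the log2 effect of losing Rab30 in livers with Cpt2 from its effect in livers without Cpt2. edgeR called 0 of 44 members, where 4.06% of 14063 genes were called, with 13 members at an unadjusted p under 0.05 and 1.2-fold, where 21.7% of all genes were. DESeq2 called 3 members (P4hb, Dnajc3 and Edem2) and 6.84% of all genes. The smallest p belonged to Edem2, with -0.62 (SE 0.19, edgeR adjusted p = 0.0677), Dnajc3, with 0.55 (SE 0.19, edgeR adjusted p = 0.102), and Derl1, with -0.47 (SE 0.17, edgeR adjusted p = 0.119). Edem2 was at 32.8, 31.6, 34.99 and 34.3 CPM in ff;ff and 41.5, 37.9, 32.04 and 38.04 in Rab30L-/-. Edem2 stood at 32.4, 39.9, 41.9 and 36.5 CPM in Cpt2L-/- and 22.6, 25.6, 25.6 and 34.2 in DKO. Dnajc3 was at 352, 284, 316 and 289 CPM in ff;ff and 320.1, 256, 220.1 and 249 in Rab30L-/-. Dnajc3 stood at 175, 204, 178 and 179 CPM in Cpt2L-/- and 206, 222, 218 and 252 in DKO. For Edem2 the order of the group means is lowest in DKO and highest in Cpt2L-/-, and for Dnajc3 it is lowest in Cpt2L-/- and highest in ff;ff. Left out singly, Rab30cff741 gave 3 calls (Herpud1, Dnajc3 and Dnajb9, all higher), ffff242 gave 2 (Atf6 lower and Ero1l higher) and DKO943 gave 1 (Edem2, lower), where 4.74%, 4.6% and 2.98% of all genes were called. With both DKO943 and Rab30cff741 left out 3.5% of all genes were called and 2 members, Herpud1 with 1.26 (SE 0.27, edgeR adjusted p = 0.0182) and Edem2 with -0.69 (SE 0.18, edgeR adjusted p = 0.0461).

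Genes next to the members in the pathway were taken from 4 wider lists. Among 14 targets of the PERK arm and the integrated stress response, 5 were higher and 1 lower in Cpt2L-/- against ff;ff, 5 higher and 0 lower in DKO against Rab30L-/-, and 4 higher and 1 lower in DKO against ff;ff, with medians of 0.32, 0.59 and 0.33. The higher ones are 35.7%, 35.7% and 28.6% of the list, where 11.9%, 14.9% and 7.87% of all genes were higher. The gene lower in DKO against ff;ff was Cebpb, with a log2 fold change of -1.03 (SE 0.30, edgeR adjusted p = 0.0389). Atf4 was not called there, with 0.31 (SE 0.23, edgeR adjusted p = 0.411), nor was Asns, with 0.13. Groups overlap in that comparison for Cebpb and for Trib3, a gene called higher. Nupr1, a stress-induced chromatin protein, was at 0.723 ± 0.544 CPM (SD, n = 4) in ff;ff, 1.10 ± 1.37 in Rab30L-/-, 18.4 ± 6.19 in Cpt2L-/- and 20.7 ± 12.6 in DKO. Its log2 fold changes were 4.58, 4.05 and 4.76 (SE 0.43, 0.76 and 0.58, edgeR adjusted p = 1.84e-05, 0.00631 and 0.00065). Atf3, a stress-induced transcription factor, was at 2.42 ± 1.55 CPM (SD, n = 4) in ff;ff, 1.58 ± 1.27 in Rab30L-/-, 15.95 ± 1.85 in Cpt2L-/- and 34.5 ± 16.6 in DKO. Its log2 fold changes were 2.67, 4.36 and 3.78 (SE 0.48, 0.59 and 0.60, edgeR adjusted p = 0.00225, 0.00129 and 0.00417). Trib3, a pseudokinase induced by ATF4, had log2 fold changes of 1.85, 0.75 and 1.72 (SE 0.36, 0.52 and 0.49, edgeR adjusted p = 0.00388, 0.322 and 0.0454), and Ddit3, which encodes CHOP, of 0.82, 1.42 and 1.42 (SE 0.21, 0.38 and 0.37, edgeR adjusted p = 0.0124, 0.0193 and 0.0227).

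Of 25 subunits of oligosaccharyl transferase, signal peptidase and signal recognition particle, 4 were lower and 1 higher in Cpt2L-/- against ff;ff, 6 and 1 in DKO against Rab30L-/- and 3 and 0 in DKO against ff;ff. The lower ones are 16%, 24% and 12% of the list, where 11.9%, 15.8% and 8.24% of all genes were lower. Of 25 other folding enzymes of the ER, 2, 9 and 5 (8%, 36% and 20%) were lower in the same order and none was higher, among them Pdia5, a disulfide isomerase, with log2 fold changes of -0.66, -1.39 and -0.70 (SE 0.18, 0.17 and 0.17, edgeR adjusted p = 0.0174, 0.000213 and 0.0143). Of the 20 other ERAD genes in the table, 1 was lower and 2 higher, 3 lower and 4 higher, and 1 lower and 1 higher. The lower ones are 5%, 15% and 5% of the list and the higher ones 10%, 20% and 5%, where 11.9%, 14.9% and 7.87% of all genes were higher. Vcp, the ATPase that pulls ERAD substrates from the membrane, had log2 fold changes of 1.19, 0.53 and 0.77 (SE 0.17, 0.20 and 0.20, edgeR adjusted p = 0.000226, 0.0625 and 0.0221). In DKO against Cpt2L-/- 2 genes of these lists were called, Fkbp2, a prolyl isomerase, with -0.93 (SE 0.20, edgeR adjusted p = 0.0382), and Creld1 with -0.45 (SE 0.11, edgeR adjusted p = 0.0475). Over all genes 1.33% were lower and 1.38% higher in that comparison. In Rab30L-/- against ff;ff, Rab30KO against Rab30 Ctrl and the interaction, edgeR called no gene of the 4 lists, and 0.479%, 0.022% and 4.06% of all genes.

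Levels between members are compared per length, by the deposited FPKM. In ff;ff P4hb was highest, at 425 ± 20.5 FPKM (SD, n = 4), and stood above all others without overlap. Herpud1 at 264 ± 50.5, Calr at 186 ± 24.2, Creb3l3 at 169 ± 21.3, Hspa5 at 156 ± 29.8, Hsp90b1 at 128 ± 27.9 and Pdia3 at 112 ± 27.9 followed, and each of these overlapped with the next in order. The sensors Atf6 at 6.64 ± 1.98, Ern1 at 6.55 ± 1.31 and Eif2ak3 at 2.13 ± 0.348 were near the bottom, and Derl3 was last at 0.950 ± 0.329. Eif2ak3 went from rank 43 of 44 in ff;ff to rank 36 in Cpt2L-/- (5.67 ± 0.665 FPKM) and rank 33 in DKO (7.31 ± 1.66 FPKM). P4hb remained first in both.

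**Figure D5:**
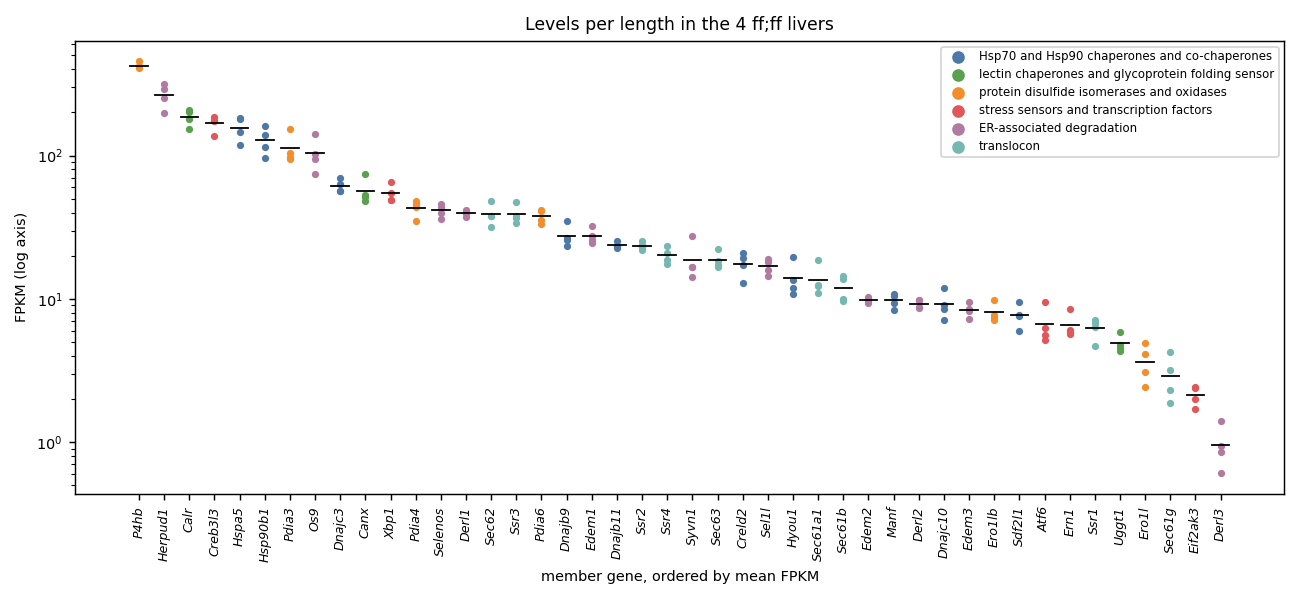
FPKM of the 44 members in the 4 ff;ff livers on a log axis, ordered by the mean (bar) and coloured by role. P4hb leads at 425, the sensors Atf6, Ern1 and Eif2ak3 lie at 6.64, 6.55 and 2.13, and Derl3 is last at 0.950.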

How the data were processed

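RNA from 24 livers of 24 h fasted mice, 4 per genotype, was sequenced, and the authors deposited raw read counts per gene, made with HISAT2 on GRCm38 (mm10) according to the submitters' processing notes, which also name DESeq2. The counting tool, annotation and strand setting are not given in the sources used here. The authors also deposited FPKM values, which equal counts divided by gene length and a library factor that follows the DESeq2 size factors, within 1% for 100% of values. They were used to order members by level. The deposited tables of fold changes and p-values and a second normalized table were not used.

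Groups came from the sample labels. Each pairwise comparison was fitted on its 8 libraries and the interaction on 16, with edgeR 4.0.16 in R 4.3.3 (filterByExpr, TMM scaling, robust quasi-likelihood test) and Benjamini-Hochberg adjustment over all genes tested. Printed SEs were obtained as the log2 fold change over the square root of F and are approximate. Alternatives were DESeq2 1.42.0, 2 other scalings, 2 other count filters, no fold threshold, all 24 libraries in 1 fit and each library left out in turn. A fit without DKO943 and Rab30cff741 was added after seeing the data. The scripts were tested on simulated data, in which edgeR recovered 56% of 200 genes changed 2-fold in Cpt2L-/- against ff;ff, 30% in Rab30KO against Rab30 Ctrl and 18.5% for the interaction. Whole-library depth ran from 11801027 to 24497738 counts, so members with few counts, such as Derl3, have the least precise values. No pair of libraries within a group agreed within sampling noise (lowest chi-square per degree of freedom 13.4). The mice are taken as separate animals from the labels.

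The members and lists were chosen with earlier results of these data known. Values in every library are given for Hspa5, the sensors and transcription factors, and in each comparison the called members with the largest changes, up to 10. A comparison with no call gives the 3 members with the smallest p. Wider lists name up to 4 called genes a comparison. Per-library values of some other members were added after their values were seen.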

Additional observations from a re-analysis of the deposited data

Results flagged for a closer look

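In each group of 4 libraries, a member was marked when its highest or lowest library stood apart from the other 3 by Dixon's criterion, which chance alone meets in about 1 of 20 groups. Of 264 member and group pairs 23 were marked, and 14 of these lay in DKO943 or Rab30cff741. DKO943 was the highest DKO liver for Hyou1 at 69.76 CPM, Dnajb11 at 54.27, Manf at 29.69, Creld2 at 17.87, Calr at 315.3, Pdia3 at 287, Pdia6 at 81.81 and Ssr2 at 49.91. For each of these the other DKO livers were lower and close together, for example 38.52 to 40.01 CPM for Hyou1 and 174 to 182.6 CPM for Calr. Rab30cff741 was the highest Rab30L-/- liver for Hspa5 at 1009 CPM, Hyou1 at 197.8, Creld2 at 52.47, Eif2ak3 at 23.86, Syvn1 at 116.3 and Sec61a1 at 136.2. Here the other Rab30L-/- livers ran from 514.7 to 569 CPM for Hspa5 and from 74.05 to 83.13 CPM for Hyou1.

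The remaining 9 were spread over 6 libraries. The liver ffff238 was highest of ff;ff for Canx at 345 CPM, Pdia3 at 474.8 and P4hb at 1280, and ffff242 was highest for Ern1 at 67.75 CPM. In Rab30 Ctrl, WT221 was highest for Calr at 484.4 CPM and Uggt1 at 65.85, and WT281 was lowest for Pdia6 at 81.87 CPM. The liver KO4 was highest of Rab30KO for Canx at 331.2 CPM, and Cpt2166 was highest of Cpt2L-/- for Dnajc3 at 204.1 CPM.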

How the results depend on the processing

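No called member reversed direction in the comparison that called it, in any setting or leave-one-out fit run. Values that were not called are not covered by this. Of the 9, 11 and 10 members that kept their calls in every setting that tested them and every leave-one-out fit in Cpt2L-/- against ff;ff, DKO against Rab30L-/- and DKO against ff;ff, Dnajb11, Pdia6, Eif2ak3 and Edem1 were among those of all 3. Derl3, among the 9 and the 10, was tested in 5 of the 6 settings, as it has under 10 counts in some libraries. Leaving out 1 library gave 14 to 19 members called in Cpt2L-/- against ff;ff, 14 to 24 in DKO against Rab30L-/-, 11 to 20 in DKO against ff;ff, 0 to 6 in DKO against Cpt2L-/- and 0 to 3 for the interaction. In DKO against Cpt2L-/- the 1 call became 2 with DESeq2 and 0 with all 24 libraries in 1 fit. For the interaction the count rose from 0 to 2 on library totals alone, to 3 with DESeq2 and to 2 without both DKO943 and Rab30cff741. Of all 14063 genes tested, 191 were higher and 373 lower on library totals, against 310 and 261 under TMM. The other settings called 6.84% and 3.5% of all genes. The cause of these moves was not tested. DKO against Rab30L-/- had 16 calls on library totals and 26 with all 24 libraries in 1 fit, against 21. Over all genes, library totals gave 3066 higher and 1466 lower, against 1984 and 2097. The share over all genes in the fit of 24 libraries is not given here. The count stayed at 0 in every setting for Rab30L-/- against ff;ff and Rab30KO against Rab30 Ctrl. Library totals also moved the median of all genes by over 0.1 in DKO against Cpt2L-/- (to -0.10) and the interaction (to -0.15). No paired analysis was possible because the groups compared share no replicate numbers in the labels. edgeR recovered 30% of simulated 2-fold changes in Rab30KO against Rab30 Ctrl, 46% in Rab30L-/- against ff;ff and 18.5% for the interaction, so 2-fold and smaller changes may have gone undetected there.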
